A study of Homo sapiens with 2 samples.

Results

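The genes described here are EGFR, ERBB2 and ERBB3, which encode receptors of the ERBB family, and ERRFI1, which encodes the brake MIG6. They were taken by name, 4 genes of the 16387 listed in both count tables, and all 4 passed the filter on low counts that left 11147 genes to test. The cells were MCF10A, a line of non-cancerous human mammary epithelium that divides without limit in culture as long as EGF is present. They were given EGF, and at 15 h some cultures also received an inhibitor, either of MEK, which phosphorylates ERK, or of PI3K, the lipid kinase that leads to AKT. The 8 conditions were the MEK inhibitor on top of EGF and the PI3K inhibitor on top of EGF, each at 20 h and 30 h, EGF alone at 15 h, 20 h and 30 h, and unstimulated cells without EGF. The inhibitor had thus been present for 5 h or 15 h, and the sources used here do not name it or its dose. Within each of the 2 biological replicates the cells of every condition were tagged and sequenced as a single pool, called library 1 and library 2 here, which gives n = 2 per condition.

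EGFR binds EGF and its relatives at the cell surface, pairs with itself or with ERBB2 or ERBB3, and passes the signal through RAS to MEK and ERK and through PI3K to AKT. ERBB2 has no known ligand of its own and serves as the preferred partner, while ERBB3 has a weak kinase but many docking sites for PI3K. ERRFI1 encodes a protein that binds the kinase domain of active receptors, blocks it and promotes the receptor's removal, and ERRFI1 itself is induced by growth factor signalling. In breast epithelium EGFR is characteristic of basal cells.

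Library 1 held 2616 cells with 33089090 UMIs (unique molecular identifiers, each counting 1 captured transcript) and library 2 held 2221 cells with 28542571 UMIs. The sums of a condition in a library ran from 213216 UMIs, in the 29 unstimulated cells of library 2, to 8508948 UMIs, and 0 barcodes were shared between libraries. The unstimulated cells of library 2 are so few that each value from them is coarse. Basal keratins marked the cells in every sum, with KRT14 at 6740 to 13767 CPM (counts per 1000000 UMIs of the sum), KRT5 at 1585 to 6294 CPM and KRT17 at 1244 to 8363 CPM. The other basal markers were lower, LAMB3 at 53 to 578 CPM, ITGB4 at 64.9 to 520 CPM, ITGA6 at 101 to 280 CPM and TP63 at 8.21 to 23.5 CPM. Of the luminal markers KRT18 was at 170 to 741 CPM, KRT8 at 28.5 to 233 CPM and MUC1 at 17.3 to 183 CPM. GATA3 was at 2.59 to 18.8 CPM and EPCAM at 0.698 to 12.7 CPM, while KRT19 and the oestrogen receptor gene ESR1 reached at most 0.760 and 0.982 CPM. By the labels all cells were MCF10A, so what free RNA adds to a gene could not be measured in cells that lack it.

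EGFR lies at chr7:55019021-55211628 on the plus strand of GRCh38 and ERRFI1 at chr1:8004404-8026308 on the minus strand, per GENCODE release 29. ERBB2 lies at chr17:39687914-39730426 and ERBB3 at chr12:56076799-56103505, both on the plus strand. EGFR and ERRFI1 both rose with the PI3K inhibitor, and the bases before their RefSeq starts on GRCh38.p14 are shown here for that reason. RefSeq gives EGFR a second start inside the gene, for which the bases up to the first annotated exon are shown. Each is written 5′ to 3′ on the gene's strand, and capitals mark matches to the AP-1 motif TGANTCA.
EGFR, outer start, chr7:55018767-55019016: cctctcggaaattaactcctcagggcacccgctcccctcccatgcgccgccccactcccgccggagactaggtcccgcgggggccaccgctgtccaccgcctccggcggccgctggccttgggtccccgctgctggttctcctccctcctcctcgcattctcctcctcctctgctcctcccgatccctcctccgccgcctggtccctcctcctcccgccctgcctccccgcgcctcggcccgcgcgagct
EGFR, inner start, chr7:55109589-55109722: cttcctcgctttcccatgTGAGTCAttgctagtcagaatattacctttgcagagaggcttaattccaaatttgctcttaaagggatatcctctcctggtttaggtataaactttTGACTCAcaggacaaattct
ERRFI1, chr1:8026310-8026559: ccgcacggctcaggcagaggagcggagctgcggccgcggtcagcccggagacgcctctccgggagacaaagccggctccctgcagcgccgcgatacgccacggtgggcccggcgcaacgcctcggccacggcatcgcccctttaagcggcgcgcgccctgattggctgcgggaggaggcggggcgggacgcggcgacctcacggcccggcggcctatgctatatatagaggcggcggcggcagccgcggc
In the 250 bases before each start, both strands were searched for the AP-1 motif TGANTCA, the FOXO motif GTAAACA and the ETS motif CCGGAAG, which do not overlap each other in these windows. The inner EGFR window held 2 AP-1 matches, beginning 232 and 136 bases before the start, while the outer EGFR window and the ERRFI1 window held 0 matches to any of the 3 motifs. The ERBB2 window, chr17:39687844-39688093, held 1 AP-1 match and 2 ETS matches. It overlapped an annotated exon of ERBB2 and coding sequence of the gene PGAP3. The ETS matches began 26 and 14 bases before the RefSeq start, inside ERBB2 as GENCODE places it. Among 35116 RefSeq windows of this length, 6.57% held the AP-1 motif, 2.98% the FOXO motif and 8.52% the ETS motif. A match is a run of letters, and UMI counts do not show which start a transcript came from.

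EGFR was higher with the PI3K inhibitor than with EGF alone at both times, and the difference was larger at 30 h. At 20 h EGFR was at 169 and 194 CPM in libraries 1 and 2 with the PI3K inhibitor, against 128 and 172 CPM with EGF alone. The groups overlapped across libraries, and EGFR was higher in each library. The log2 fold change was 0.44 (SE 0.10, edgeR quasi-likelihood adjusted p = 0.00057; without the library block 0.42, adjusted p = 0.0939), with 0.56 in library 1 and 0.29 in library 2. At 30 h EGFR was at 234 and 270 CPM with the PI3K inhibitor, against 111 and 155 CPM with EGF alone. Both libraries with the inhibitor lay above both with EGF alone, and above every other sum of the study. The log2 fold change was 1.16 (SE 0.09, edgeR adjusted p = 2.73e-15), with 1.29 and 1.04 in libraries 1 and 2.

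EGFR did not pass the test between MEK-inhibited cells and those on EGF alone. At 20 h EGFR was at 107 and 132 CPM with the MEK inhibitor, against 128 and 172 CPM with EGF alone (log2 -0.27, SE 0.10, edgeR adjusted p = 0.0785). At 30 h it was at 88.3 and 112 CPM with the MEK inhibitor, against 111 and 155 CPM with EGF alone (log2 -0.23, SE 0.10, edgeR adjusted p = 0.0514). The value was lower in each library at both times, and the 95% intervals ran from -0.47 to -0.06 at 20 h and from -0.42 to -0.04 at 30 h before adjustment. Scaled by library totals only, without the TMM factors, EGFR passed at both times, with log2 -0.32 at 20 h and -0.41 at 30 h (edgeR adjusted p = 0.023 and 0.00036). Set directly against each other, the MEK-inhibited cells had less EGFR than the PI3K-inhibited cells at 20 h (log2 -0.70, SE 0.10, edgeR adjusted p = 4.71e-07) and at 30 h (log2 -1.39, SE 0.09, edgeR adjusted p = 1.77e-18).

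Before any inhibitor, EGFR fell with EGF. At 15 h it was at 128 and 168 CPM, against 161 and 211 CPM in unstimulated cells (log2 -0.51, SE 0.13, edgeR adjusted p = 0.00225; without the library block -0.48, adjusted p = 0.0639). It was lower in each library, while the groups overlapped across libraries. With EGF alone it then showed no called change, either at 20 h against 15 h (log2 -0.03, 95% interval -0.24 to 0.18) or at 30 h against 20 h (log2 -0.18, interval -0.37 to 0.01). At 30 h the PI3K-inhibited cells stood above unstimulated cells (log2 0.44, SE 0.12, edgeR adjusted p = 0.00495), a call lost in 2 of 8 alternative tests (adjusted p up to 0.127), and the MEK-inhibited cells stood below them (log2 -0.95, SE 0.13, edgeR adjusted p = 7.52e-08). By mean level the order was MEK inhibitor at 30 h, MEK inhibitor at 20 h, EGF alone at 30 h, 15 h and 20 h, PI3K inhibitor at 20 h, unstimulated and PI3K inhibitor at 30 h, and only the last step lay beyond the spread of the libraries. EGFR-AS1, an antisense gene inside EGFR at chr7:55179750-55188934 on the minus strand, had at most 5 UMIs in any sum; the sources used here do not state the strand setting of the counting.

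**Figure D1:**
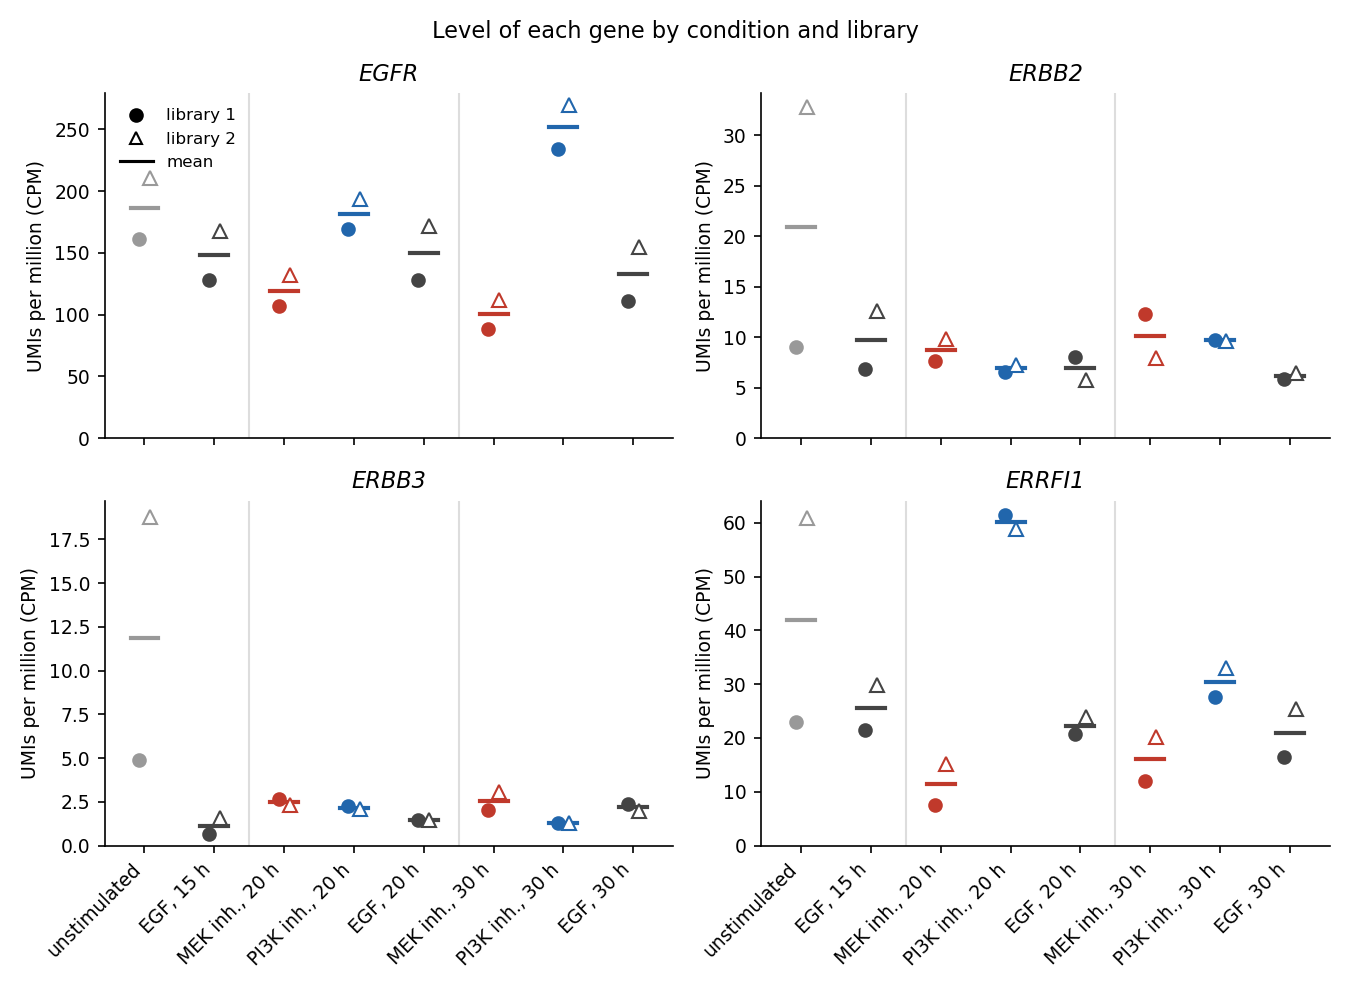
Level of each gene in CPM (vertical axis from 0, scaled per gene) in the 8 conditions, with circles for library 1, triangles for library 2 and a bar for their mean (n = 2). EGFR stands highest with the PI3K inhibitor at 30 h (234 and 270 CPM) and ERRFI1 with the PI3K inhibitor at 20 h (61.4 and 58.8 CPM), while the libraries differ most in unstimulated cells.

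ERRFI1 moved in opposite directions with the 2 inhibitors at 20 h, and its rise with the PI3K inhibitor was largest at that time. With the PI3K inhibitor ERRFI1 was at 61.4 and 58.8 CPM at 20 h, against 20.7 and 23.9 CPM with EGF alone. The groups did not overlap, and the log2 fold change was 1.60 (SE 0.16, edgeR adjusted p = 4.65e-11), with 1.70 and 1.40 in libraries 1 and 2. With the MEK inhibitor ERRFI1 was at 7.60 and 15.1 CPM at 20 h, against the same 20.7 and 23.9 CPM with EGF alone. These groups did not overlap either (log2 -0.93, SE 0.23, edgeR adjusted p = 0.00342; without the library block -0.91, adjusted p = 0.111), and the fall was -1.35 in library 1 and -0.59 in library 2.

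At 30 h ERRFI1 was at 27.7 and 33.1 CPM with the PI3K inhibitor, against 16.5 and 25.4 CPM with EGF alone. The lower library with the inhibitor stood above the higher library with EGF alone (log2 0.76, SE 0.16, edgeR adjusted p = 0.000173). With the MEK inhibitor it was at 12 and 20.2 CPM at 30 h, against 16.5 and 25.4 CPM with EGF alone, and the groups overlapped (log2 -0.18, 95% interval -0.53 to 0.18, edgeR adjusted p = 0.462). MEK-inhibited cells had less ERRFI1 than PI3K-inhibited cells at 20 h (log2 -2.54, SE 0.20, edgeR adjusted p = 1.2e-14) and at 30 h (log2 -0.93, SE 0.16, edgeR adjusted p = 3.64e-06).

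In unstimulated cells ERRFI1 was at 23.0 and 61.0 CPM, the second value resting on 13 UMIs, and the libraries differed more than in any other condition. At 15 h of EGF it was at 21.4 and 29.9 CPM, which did not pass against the unstimulated cells (log2 -0.52, 95% interval -1.09 to 0.06, edgeR adjusted p = 0.182). ERRFI1 was lower with the MEK inhibitor at 30 h than in unstimulated cells (log2 -1.01, SE 0.29, edgeR adjusted p = 0.00859; without the library block adjusted p = 0.0775). The PI3K inhibitor at 30 h against unstimulated cells gave log2 -0.08 (interval -0.61 to 0.45). By mean level the order was MEK inhibitor at 20 h and 30 h, EGF alone at 30 h, 20 h and 15 h, PI3K inhibitor at 30 h, unstimulated and PI3K inhibitor at 20 h, and each neighbouring pair overlapped between libraries.

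EGFR and ERRFI1 differed in time. The difference of the PI3K inhibitor from EGF alone grew between 20 h and 30 h for EGFR (30 h minus 20 h, log2 0.72, SE 0.13, edgeR adjusted p = 0.000184; without the library block adjusted p = 0.229), by 0.73 in library 1 and 0.75 in library 2. For ERRFI1 it shrank (log2 -0.85, SE 0.23, edgeR adjusted p = 0.0182), by -0.76 in library 1 and -0.78 in library 2. The ERRFI1 call was lost in 4 of 8 alternative tests, with adjusted p up to 0.454. The change of the MEK inhibitor's difference did not pass for ERRFI1 (log2 0.76, interval 0.17 to 1.34 before adjustment, edgeR adjusted p = 0.124), with 1.06 in library 1 and 0.45 in library 2. For EGFR it did not pass either (log2 0.03, interval -0.25 to 0.31, edgeR adjusted p = 0.938).

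ERBB2, the ligandless partner receptor, was sparsely counted, with 7 to 68 UMIs in a sum. At 30 h it was at 12.3 and 7.99 CPM with the MEK inhibitor and at 9.72 and 9.65 CPM with the PI3K inhibitor, against 5.87 and 6.45 CPM with EGF alone. Over all cells both inhibitors stood above EGF alone in both libraries. The MEK inhibitor gave log2 0.80 (SE 0.26, edgeR adjusted p = 0.0131) and the PI3K inhibitor log2 0.87 (SE 0.27, edgeR adjusted p = 0.0076). The MEK inhibitor value was 1.15 in library 1 and 0.46 in library 2, and that of the PI3K inhibitor was 0.888 in library 1 and 0.775 in library 2. These calls are weak: that with the MEK inhibitor was kept in 3 of 8 alternative tests and that with the PI3K inhibitor in 4 of 8, and without the library block the adjusted p was 0.0818 and 0.0678. At 20 h ERBB2 was at 7.60 and 9.82 CPM with the MEK inhibitor and at 6.6 and 7.22 CPM with the PI3K inhibitor, against 8.08 and 5.8 CPM with EGF alone, which overlapped with both (log2 0.32 and 0.04 for the MEK and PI3K inhibitors, neither called).

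At 15 h of EGF ERBB2 was at 6.87 and 12.6 CPM, against 9.07 and 32.8 CPM in unstimulated cells, where the second value rests on 7 UMIs (log2 -0.91, 95% interval -1.80 to -0.02, edgeR adjusted p = 0.123). Fibroblast markers moved beside the ERBB2 rise with the MEK inhibitor: of 7 genes in the list 3 were in the tables, and their summed level was 49.0 and 24.8 CPM with the MEK inhibitor at 30 h, 16.6 and 8.07 CPM with the PI3K inhibitor and 14.7 and 9.19 CPM with EGF alone. DCN, a matrix proteoglycan gene, made up most of it, at 6.30 to 93.8 CPM over the 16 sums. In unstimulated cells the sum was 96.3 and 98.5 CPM. Their part in the ERBB2 values was not tested.

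ERBB3, the partner that recruits PI3K, was at the edge of detection. The gene had 1 to 26 UMIs in a sum, and only 4 of the 16 sums reached the 2.60 CPM that the low-count filter asks for, both unstimulated sums and a MEK inhibitor sum at each time. At 15 h of EGF ERBB3 was at 0.654 and 1.57 CPM (4 and 1 UMIs), against 4.88 and 18.8 CPM in unstimulated cells (7 and 4 UMIs). The groups did not overlap, and the test called a fall (log2 -3.32, SE 0.77, edgeR adjusted p = 0.000743). The plain ratio of 15 h over unstimulated was 0.134 in library 1 (exact 95% interval 0.0288 to 0.527) and 0.0839 in library 2 (0.0017 to 0.848), intervals that cover counting error only. The call thus rests on few UMIs in each library. ERBB3 also passed the filter partly through the unstimulated sums that it is set against here. The call could be tested in 6 alternatives, but not with only the conditions compared or outside S and G2/M.

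No inhibitor changed ERBB3 detectably against EGF alone. At 20 h it was at 2.66 and 2.29 CPM with the MEK inhibitor and 2.28 and 2.06 CPM with the PI3K inhibitor, against 1.45 and 1.45 CPM with EGF alone. At 30 h it was at 2.04 and 3.06 CPM with the MEK inhibitor, 1.30 and 1.27 CPM with the PI3K inhibitor and, with EGF alone for comparison, 2.40 and 1.96 CPM. The adjusted p in edgeR ran from 0.408 to 0.481 over these 4 comparisons, and the widest 95% interval, -0.46 to 1.92 for the PI3K inhibitor at 20 h, leaves room for a rise of over 1 on the log2 scale. The PI3K inhibitor at 30 h stood below the unstimulated cells (log2 -2.51, SE 0.67, edgeR adjusted p = 0.0041), again from few UMIs, with log2 -1.67 in library 1 and -3.32 in library 2: the ratio was 0.265 in library 1 (exact interval 0.0737 to 0.922) and 0.0675 in library 2 (0.0181 to 0.306).

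**Figure D2:**
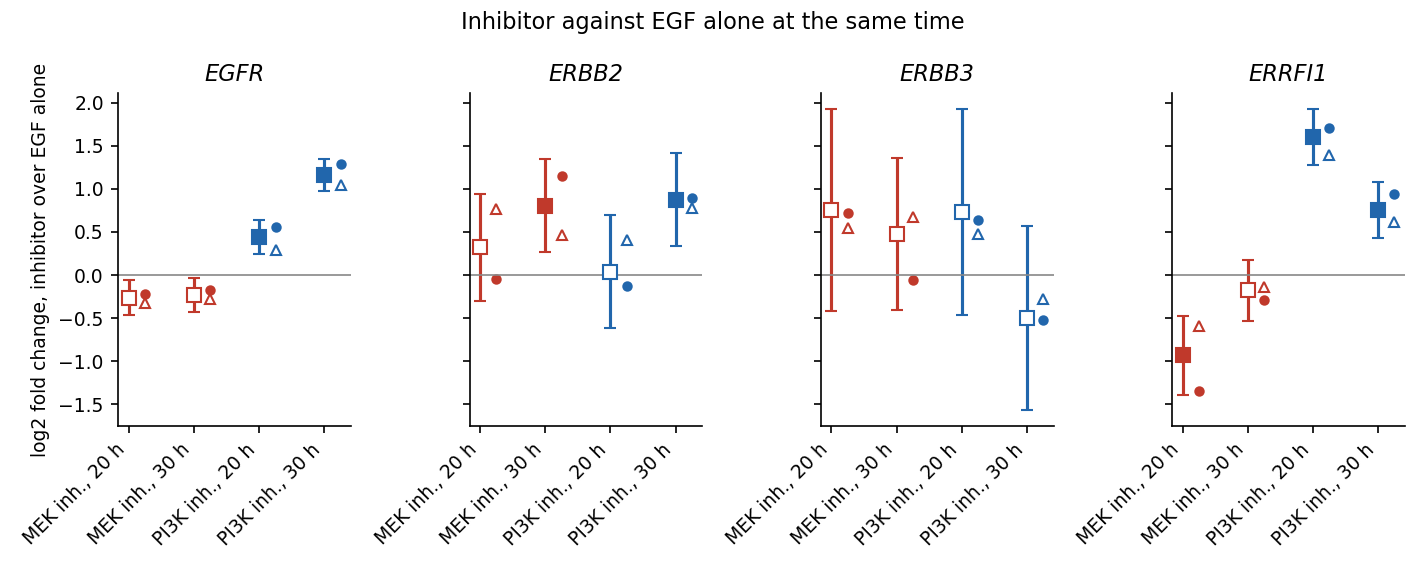
Log2 fold change of each gene with an inhibitor over EGF alone at the same time (vertical axis). Squares with bars are the edgeR estimate and its 95% interval over both libraries, filled where the adjusted p is under 0.05. The small circle and triangle are the differences of log2 CPM within library 1 and library 2. EGFR and ERRFI1 rise with the PI3K inhibitor at both times, and the ERBB3 intervals all span 0.

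How many of the 4 genes were called can be read against all genes. Against EGF alone at 20 h, 1 of the 4 was called with the MEK inhibitor, where 11.9% of all genes were called, and 2 with the PI3K inhibitor, where 23.4% were. At 30 h it was 1 with the MEK inhibitor (37.8% of all genes) and 3 with the PI3K inhibitor (39.7%). Between the MEK and PI3K inhibitors 2 were called at 20 h (21.6% of all genes) and 2 at 30 h (41.6%). At 15 h against unstimulated cells 2 were called (28.0%), and 0 were called at 20 h against 15 h (5.10%) or at 30 h against 20 h with EGF alone (7.79%); at an unadjusted p under 0.05 these last 2 comparisons also had 0 of the 4. Against unstimulated cells at 30 h it was 2 with the MEK inhibitor (18.1%) and 2 with the PI3K inhibitor (21.3%). For the change between 20 h and 30 h, 0 were called for the MEK inhibitor's difference (5.58%), where ERRFI1 had an unadjusted p under 0.05, and 2 for that of the PI3K inhibitor (5.65%).

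The share of single cells with an ERRFI1 transcript, drawn from the same UMIs as the sums, was higher with the PI3K inhibitor at 20 h. With every cell thinned to 3000 UMIs, 14.5% and 15.5% of PI3K-inhibited cells in libraries 1 and 2 had an ERRFI1 UMI (exact 95% intervals 10.9 to 18.7 and 10.6 to 21.5), against 6.62% and 7.30% with EGF alone (4.48 to 9.37 and 4.31 to 11.4). With the MEK inhibitor the share was 0.926% and 4.51% (0.112 to 3.30 and 2.27 to 7.92). All conditions of a library shared a pool. If free RNA made up the same part of each thinned cell, it gave at most about the lowest share seen in its library. That was not tested, and the lowest ERRFI1 share of library 1 rests on 2 of 216 cells. Unthinned, ERRFI1 was seen in 47.6% and 41.2% of PI3K-inhibited, 9.26% and 17.6% of MEK-inhibited and 22.1% and 22.7% of EGF-only cells. For EGFR at 30 h the thinned share was 45.5% and 54.0% with the PI3K inhibitor (intervals 40.4 to 50.7 and 49.5 to 58.4), 22.5% and 32.6% with the MEK inhibitor (18.2 to 27.3 and 28.9 to 36.5) and 29% and 35.8% with EGF alone (23.4 to 35.1 and 30.7 to 41.1). Unthinned, those EGFR shares were 89.1% and 91.9%, 64.5% and 72.6%, and 76.7% and 86.6%.

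ERBB2 shares at 30 h were higher with either inhibitor, but rest on few cells. MEK-inhibited cells had 3.76% and 2.60% and PI3K-inhibited cells 2.93% and 3.57%, against 2.45% and 1.74% with EGF alone. Both libraries with each inhibitor lay above both with EGF alone, while the exact intervals overlapped at this depth. With EGF alone 6 cells in each library had a UMI. Unthinned, the shares were 14.7% and 10.6%, 10.6% and 12.1%, and 8.57% and 9.01%. ERBB3 had a UMI in at most 3.45% of thinned cells of any sum. In library 2 at 30 h ERBB3 was seen in 0 of 504 PI3K-inhibited cells and likewise in 0 of 344 EGF-only cells. Library 1 gave 0 of 488 after 15 h of EGF, and 0 of 216 for MEK-inhibited cells at 20 h. For the 504 PI3K-inhibited cells a count of 0 at 3000 UMIs each allows a share up to 0.595% by 3 counts of the total. The exact 95% interval allows up to 0.729%. With all UMIs of each of these 504 cells the share was 1.39%, a value at greater depth. Each thinned share reads 1 captured molecule against none, and says nothing on how many molecules a cell held.

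The cells' position in the cycle moved with the inhibitors, so the genes were also read outside S and G2/M. Cells classed as neither S nor G2/M made up 86.2% and 80.4% of PI3K-inhibited and 65.6% and 37.3% of MEK-inhibited cells at 30 h, against 29.4% and 15.1% with EGF alone; 17.2% of all cells lay within 0.05 score units of a class boundary. Among such cells EGFR was at 247 and 280 CPM with the PI3K inhibitor at 30 h, against 119 and 159 CPM with EGF alone (log2 1.07, edgeR adjusted p = 1.26e-08). ERRFI1 in these cells at 20 h was at 65.4 and 67.1 CPM with the PI3K inhibitor and 11.0 and 11.5 CPM with the MEK inhibitor, against 24.8 and 23.4 CPM with EGF alone (log2 1.53, edgeR adjusted p = 1.6e-07, and log2 -1.07, adjusted p = 0.0341). EGFR at 20 h in these cells fell with the MEK inhibitor, at 97.4 and 116 CPM against 139 and 166 CPM with EGF alone (log2 -0.42, edgeR adjusted p = 0.0484), while at 30 h it was at 89.6 and 126 CPM against 119 and 159 CPM with EGF alone and did not pass (log2 -0.19, edgeR adjusted p = 0.416). The ERRFI1 difference with the PI3K inhibitor at 30 h was of like size, 29.3 and 33.8 CPM against 15.0 and 26.5 CPM with EGF alone, and just missed the threshold (log2 0.77, edgeR adjusted p = 0.0517).

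**Figure D3:**
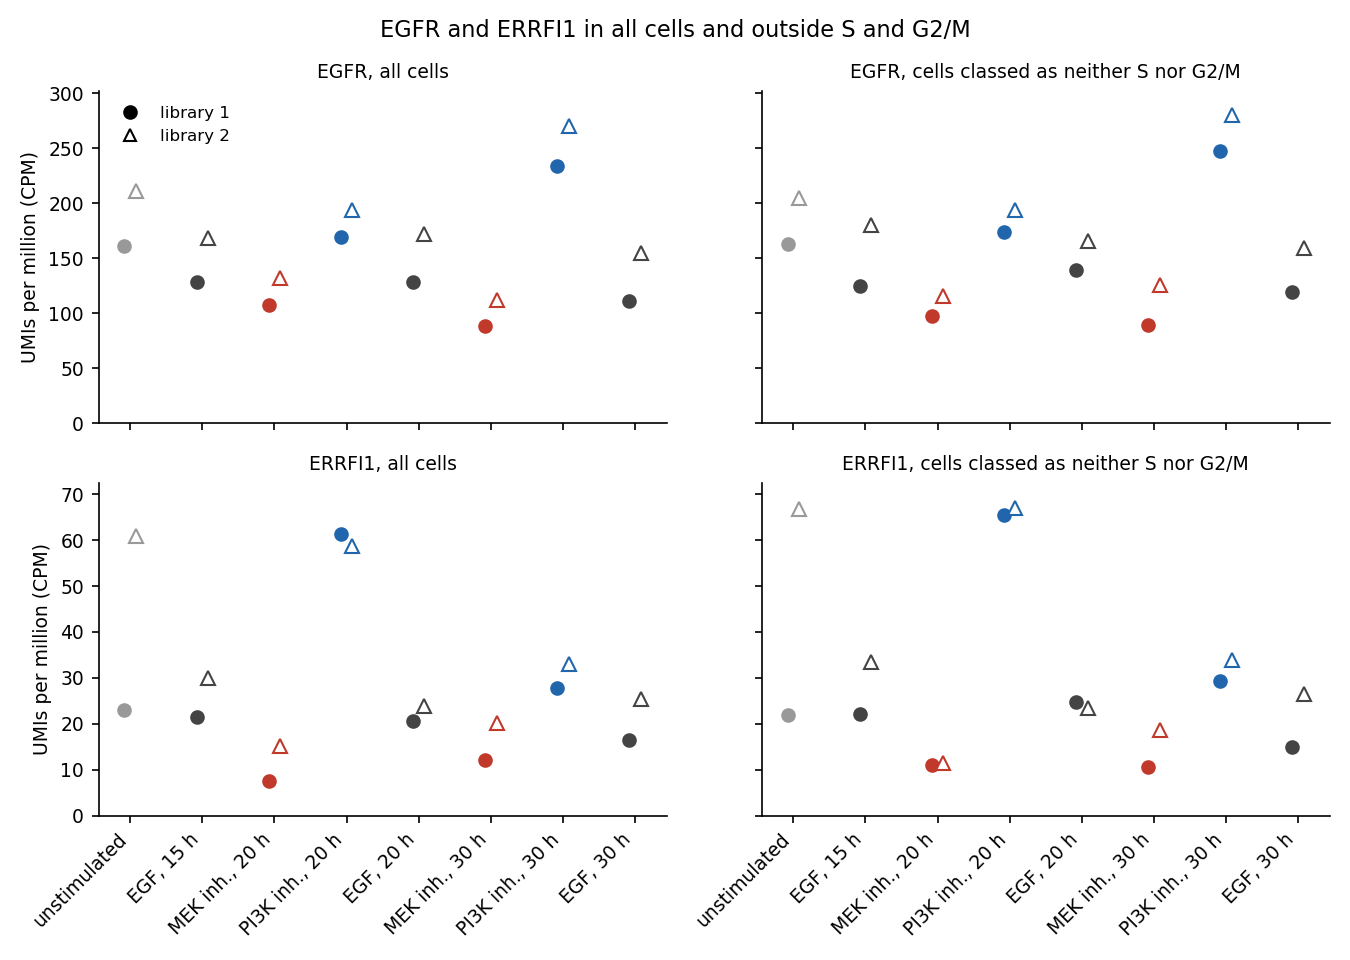
EGFR (top) and ERRFI1 (bottom) in CPM by condition, in all cells (left) and in cells classed as neither S nor G2/M (right); circles are library 1 and triangles library 2. The order of the conditions is much the same on both sides, with EGFR at 247 and 280 CPM with the PI3K inhibitor at 30 h outside S and G2/M.

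The genes whose levels followed each member most closely were found over the 16 sums after each library's mean was removed, as a description of sums that share libraries and conditions. EGFR was followed by AVPI1 (Pearson r = 0.924), MPST (0.922) and CDC42EP2 (0.922). ERRFI1 was followed by CD55, which shields cells from complement (0.928), MCL1, a survival factor of the BCL2 family (0.913), and IRS2, the insulin receptor adaptor (0.902). For these genes the values without the unstimulated sums were 0.915 to 0.944. ERBB2 was followed by MTRNR2L12 (0.869), CDH13 (0.864) and MVP (0.862), and ERBB3 by SHOC2 (0.913), LMO7 (0.901) and STAG2 (0.896). Without the unstimulated sums those of ERBB2 were 0.731 to 0.746, and those of ERBB3 dropped to 0.509 to 0.679. Among the members, EGFR and ERRFI1 had r = 0.723 and ERBB2 and ERBB3 had r = 0.702, and the other 4 pairs had 0.103 to 0.296. The values between members were not computed without the unstimulated sums, where ERBB2 and ERBB3 both had their highest mean.

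The counts of called genes in the lists that follow can be read against the shares of all genes called in the same comparisons, 11.9% with the MEK inhibitor and 23.4% with the PI3K inhibitor at 20 h, and 37.8% and 39.7% at 30 h. The ligands of EGFR fell with the MEK inhibitor and mostly rose with the PI3K inhibitor by 30 h. At 20 h 4 of the 5 tested ligand genes fell with the MEK inhibitor and 0 rose, among them HBEGF (log2 -2.02, SE 0.36) and TGFA (-1.94, SE 0.23), which encode membrane-anchored EGFR ligands. The list's median was -1.83, beside 0.01 for all genes. At 30 h 4 fell, led by AREG, which encodes amphiregulin (log2 -2.27, SE 0.15), and HBEGF (-2.25, SE 0.46), and EPGN, the epigen gene, rose (0.64, SE 0.13), with a list median of -1.63. With the PI3K inhibitor at 20 h HBEGF rose (0.66, SE 0.24) and TGFA fell (-0.61, SE 0.19), with a list median of -0.05. At 30 h 4 of 5 rose and 0 fell, led by HBEGF (2.13, SE 0.26) and EPGN (0.79, SE 0.13), with a list median of 0.74. Of the neuregulins, ligands of ERBB3 and ERBB4, 2 genes were tested. NRG4 rose with the MEK inhibitor at 30 h (1.19, SE 0.34), and NRG1 and NRG4 fell with the PI3K inhibitor at 30 h (-1.55, SE 0.45, and -1.30, SE 0.50). Both inhibitors were set against the same EGF-only sums. The fourth receptor gene ERBB4 was not listed in both count tables, so it was not analysed here.

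Of the genes that shed ligands from the membrane, the metalloproteases and the iRhoms that escort ADAM17, 4 were tested. The iRhom genes were those that moved. RHBDF2 fell with the MEK inhibitor at 20 h (log2 -1.40, SE 0.45) and RHBDF1 rose with it at 30 h (1.04, SE 0.27). With the PI3K inhibitor RHBDF1 rose at 20 h (1.19, SE 0.32), and RHBDF1 (1.26, SE 0.27) and RHBDF2 (1.15, SE 0.32) rose at 30 h.

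Of 17 genes of receptor uptake and degradation, 5 rose and 0 fell with the PI3K inhibitor at 20 h, and 7 rose and 1 fell at 30 h. Those counts lie near the 23.4% and 39.7% of all genes called. CBLB, a ubiquitin ligase that marks active receptors for breakdown, rose by log2 1.14 (SE 0.42) and 1.84 (SE 0.40) at 20 h and 30 h, and STAM2, part of the endosomal sorting complex, by 0.99 (SE 0.29) and 0.81 (SE 0.24). SH3KBP1, an adaptor that links CBL proteins to endocytosis, fell at 30 h (-1.13, SE 0.19). With the MEK inhibitor 0 rose and 2 fell at 20 h, SH3KBP1 (-0.74, SE 0.21) and ITCH, another ubiquitin ligase gene (-0.61). At 30 h 2 rose and 3 fell with it, led by CBLB upward (1.55, SE 0.40) and by CBLC, its epithelial relative (-1.81, SE 0.25), and SH3KBP1 (-1.29, SE 0.19) downward. The list medians were 0.33 and 0.25 with the PI3K inhibitor and -0.21 and -0.09 with the MEK inhibitor at 20 h and 30 h, beside 0.00 to 0.01 for all genes. Of 7 other brakes on the receptors, LRIG3 (-1.01, SE 0.34) and PTPN1 (-0.62) fell with the MEK inhibitor at 20 h, LRIG3 fell with it at 30 h (-0.79, SE 0.23), and PTPN1 rose with the PI3K inhibitor at 30 h (0.32). The median of these brakes was -0.55 with the MEK inhibitor at 20 h and -0.14 at 30 h, and 0.09 and -0.09 with the PI3K inhibitor.

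Of 13 tested adaptors and effectors that dock on the receptors, 1 fell with the MEK inhibitor at 20 h, PIK3R1, which encodes a regulatory subunit of PI3K (log2 -0.52, SE 0.12). At 30 h 1 rose and 4 fell with it, with STAT3 upward (0.43) and GRB2 (-0.64) and SHC1 (-0.54) the largest falls, a count near the 37.8% of all genes called. With the PI3K inhibitor 2 rose and 2 fell at 20 h, PIK3CA, the gene of a catalytic subunit of PI3K (0.71, SE 0.19), and CRK (0.47) upward, and PIK3R1 (-0.43, SE 0.12) and PTPN11 (-0.39, SE 0.12) downward. At 30 h 2 rose and 3 fell, again PIK3CA (0.76, SE 0.18), now with SHC1 (0.72), against PTPN11 (-0.80, SE 0.12) and PIK3R1 (-0.54, SE 0.11) as the largest falls.

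Genes induced by ERK as feedback on its own pathway served as a readout of the MEK inhibitor. With it 10 of 11 fell at 20 h, led by SPRY1 (log2 -3.57) and SPRY4 (-3.47), and 11 of 11 fell at 30 h, led by SPRY4 (-5.20) and ETV4 (-4.06). The sprouty genes had few UMIs over both libraries with the inhibitor: the plain ratio over EGF alone was 0.0684 for SPRY1 at 20 h (1 UMI against 23, exact 95% interval 0.00166 to 0.421), 0.0787 for SPRY4 at 20 h (2 against 40, 0.00921 to 0.303) and 0.0172 for SPRY4 at 30 h (1 against 40, 0.000424 to 0.101). With the PI3K inhibitor 3 of them rose at 20 h, led by DUSP5 (1.11, SE 0.28) and SPRY2 (0.85), and at 30 h 4 rose, led by DUSP5 (1.14, SE 0.24) and PHLDA1 (1.01), while ETV4 fell (-0.95). Genes known as FOXO targets or PI3K feedback served as a readout of the PI3K inhibitor. With it 6 of 11 rose at 20 h, led by TXNIP (2.34, SE 0.12) and CCNG2 (1.92, SE 0.20), and 8 rose at 30 h, led by TXNIP (2.07, SE 0.12) and INSR, the insulin receptor gene (1.47, SE 0.34). With the MEK inhibitor 2 of these rose and 2 fell at 20 h, with SESN1 (1.10) and FOXO3 (0.56) upward and IRS2 (-0.996, SE 0.23) and KLF6 (-0.44) downward, and 5 rose at 30 h, led by CCNG2 (1.23, SE 0.16) and BCL6 (1.18).

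Other receptor tyrosine kinases moved in both directions. Of 15 tested, 3 rose and 4 fell with the MEK inhibitor at 20 h, with EPHA4 (log2 3.17, SE 0.78) and FGFR3 (0.85, SE 0.23) upward and EPHA2 (-3.11, SE 0.27) and EPHB4 (-0.95) downward. At 30 h 4 rose and 7 fell with it, with EPHA4 (3.8, SE 0.94) and FGFR3 (2.32, SE 0.18) upward and EPHA2 (-2.40, SE 0.19) and FGFR1 (-1.92) downward. EPHA4 was nearly unseen with EGF alone, and its plain ratio was 9.44 at 20 h (18 UMIs against 3, exact 95% interval 2.76 to 50) and 15.8 at 30 h (23 against 1, 2.56 to 650). With the PI3K inhibitor 2 rose and 0 fell at 20 h, AXL (1.05, SE 0.26) and MET (0.39). At 30 h 4 rose and 1 fell, with AXL (1.45, SE 0.18) and MET (0.64) upward and FGFR3 (-0.69, SE 0.27) downward. EGFR, with its rise of 1.16 at 30 h, stood between AXL and MET.

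**Figure D4:**
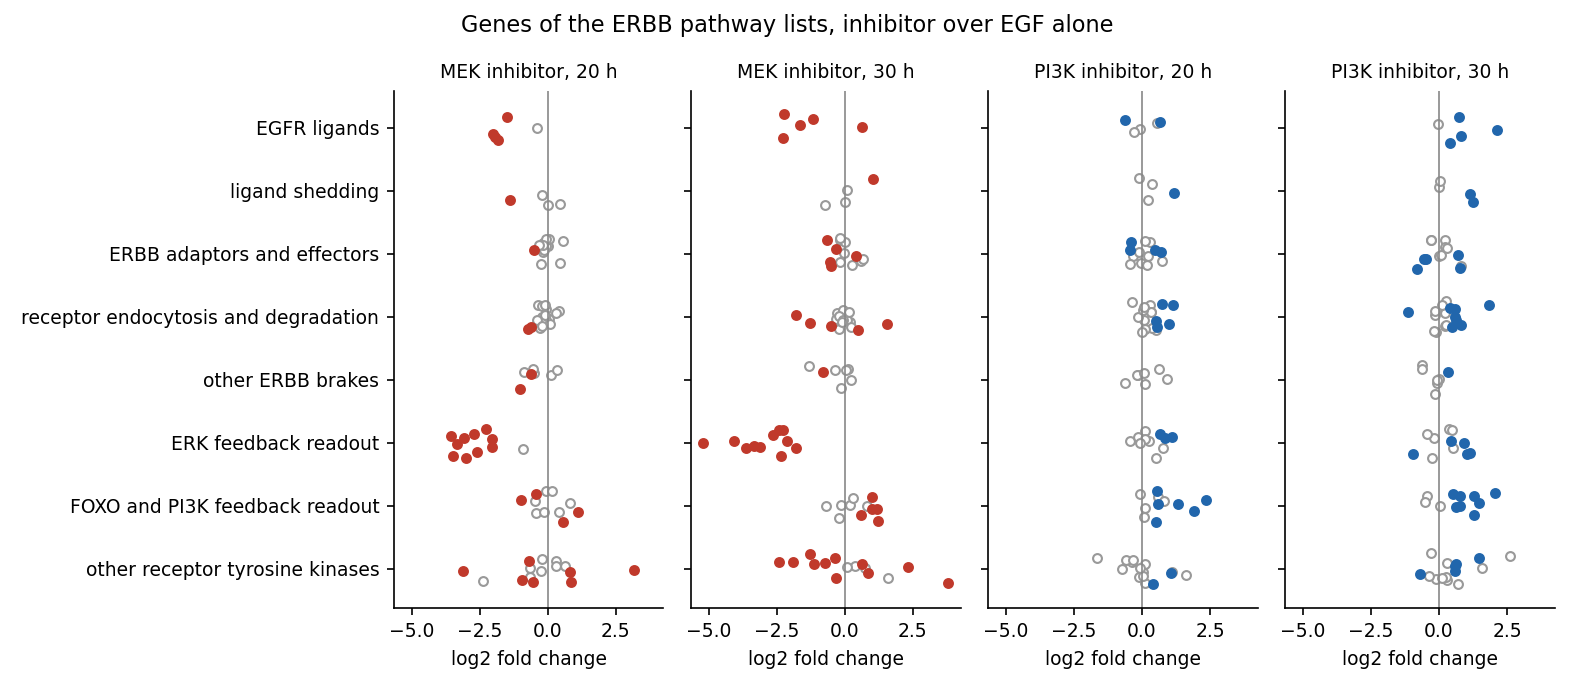
Log2 fold change with an inhibitor over EGF alone (horizontal axis) for each tested gene of 8 lists around the ERBB receptors; each point is a gene, spread vertically for sight, filled where the edgeR adjusted p is under 0.05. EGFR ligands and ERK feedback genes lie below 0 with the MEK inhibitor, apart from EPGN at 30 h (0.64), and FOXO and PI3K feedback genes lie mostly above 0 with the PI3K inhibitor.

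Markers of breast cell states moved beside these lists. Of 7 basal markers 4 rose and 1 fell with the PI3K inhibitor at 30 h, and 3 rose and 3 fell with the MEK inhibitor. Their summed level at 30 h was 14551 and 21452 CPM with the PI3K inhibitor and 22867 and 27613 CPM with the MEK inhibitor, against 12564 and 15955 CPM with EGF alone. Of the luminal markers 7 of 8 were in the tables. Their sum at 30 h was 740 and 824 CPM with the PI3K inhibitor and 419 and 567 CPM with the MEK inhibitor. With EGF alone it was 602 and 668 CPM. KRT18 had the most UMIs of this list and so weighs most in the sum. Of the 5 luminal genes tested, 2 rose and 1 fell with each inhibitor at 30 h. Their median log2 fold change ran opposite to the sums, at -0.35 with the PI3K inhibitor and 0.41 with the MEK inhibitor. The immune list rested on CD14, whose sum with LYZ was 1.30 to 37.5 CPM, and the endothelial sum was 0 to 4.88 CPM. The part of these markers in the values of the ERBB genes was not tested.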

How the data were processed

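Counts deposited by the authors are whole UMI numbers for each gene in each cell, before any normalisation; the authors name Cell Ranger 3.0.2, Seurat and build GRCh38 per the submitters' processing notes; the other columns used are the deposited tags and condition names. Per the labels' protocols, cells were tagged, pooled and fixed in methanol. The authors' tag calls marked 56.1% of the barcodes with a tag call in library 1 and 40.2% in library 2 as doublets. These were left out. Doublets of the same tag cannot be seen, and their part in the shares and cell cycle classes was not tested.

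UMIs were summed per library and condition into 16 sums. These were fitted with edgeR 4.0.16 (TMM scaling, quasi-likelihood F test, library as block, R 4.3.3) on 11147 genes that passed filterByExpr with a minimum count of 10. Adjusted p-values are Benjamini-Hochberg over all 11147 genes, called under 0.05. Printed CPM are without TMM factors (0.829 to 1.16), and fold changes include them. Log2 values of a single library are differences of TMM-scaled log2 CPM with a prior count of 2, not fits. That prior draws the values of sparse genes toward 0. Shares used cells thinned to 3000 UMIs, and S and G2/M classes came from 43 and 54 genes. Intervals and floors cover counting error only.

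The labels make a library a pool of all conditions, so libraries pair the sums: deviations of the same library correlated with a median r of 0.588 (0.279 to 0.675) over 28 pairs of conditions. The genes, lists and tests were chosen with earlier results of these data known. Genes named from a list are the called ones with the largest rise or fall, at most 2 each way per comparison. Alternatives were DESeq2 size factors and Wald test, library totals, no filter, no block, only the conditions compared, each library left out, the deepest 10% of cells left out, and cells outside S and G2/M; leaving out unstimulated sums from correlations was added after seeing the data. Promoter sequences are RefSeq's on GRCh38.p14, which matched 3 of the 4 genes.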

Additional observations from a re-analysis of the deposited data

Results flagged for a closer look

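The difference of the PI3K inhibitor from EGF alone changed between 20 h and 30 h for EGFR (log2 0.72, 30 h minus 20 h, edgeR adjusted p = 0.000184), larger at 30 h in 2 of 2 libraries. For ERRFI1 it changed the other way (log2 -0.85, edgeR adjusted p = 0.0182), smaller at 30 h in 2 of 2 libraries. Both drew attention because the time difference itself passed the test. Cells outside S and G2/M gave 0.69 for EGFR (adjusted p = 0.0375) and -0.76 for ERRFI1 (adjusted p = 0.429).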

How the results depend on the processing

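EGFR with the PI3K inhibitor at 30 h rose in all 8 tested alternatives and stayed called. So did ERRFI1 with it at 20 h. Their log2 values ran from 0.92 to 1.29 and from 1.40 to 1.70. Those ranges also count the differences within a single library, which give no test. Other values fell short of the threshold or passed it under some settings. Without the library block, ERRFI1 with the MEK inhibitor at 20 h (-0.91), EGFR with the PI3K inhibitor at 20 h (0.42), EGFR at 15 h against unstimulated (-0.48), ERBB2 at 30 h with the MEK (0.85) and PI3K (0.88) inhibitors, and the change from 20 h to 30 h of the PI3K difference for EGFR (0.74) and ERRFI1 (-0.83) were no longer called. ERBB2 at 30 h also missed with library totals only (0.63 and 0.64 for the MEK and PI3K inhibitors), with DESeq2 (0.87 and 0.89) and outside S and G2/M (1.36 and 1.33), and with the MEK inhibitor without the deepest cells (0.63). ERRFI1 with the PI3K inhibitor at 30 h missed outside S and G2/M (0.77), and its change over time missed there (-0.76), without the deepest cells (-0.84) and with DESeq2 (-0.81). EGFR with the MEK inhibitor passed with library totals only (-0.32 at 20 h, -0.41 at 30 h), with only the conditions compared (-0.26 and -0.23) and, at 20 h, outside S and G2/M (-0.42).

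Signs turned for values that were not called. ERBB2 at 20 h turned outside S and G2/M with the MEK inhibitor (-0.57) and the PI3K inhibitor (-0.10), and with library totals only with the PI3K inhibitor (-0.10); between the inhibitors it turned outside S and G2/M at 20 h (-0.46) and 30 h (0.0304). ERBB3 between the inhibitors at 20 h turned without the deepest cells (-0.13). At 20 h against 15 h, EGFR turned with library totals only (0.022) and outside S and G2/M (0.0638), and ERBB2 outside S and G2/M (0.0599). ERRFI1 with the PI3K inhibitor at 30 h against unstimulated turned with no filter (0.0020) and outside S and G2/M (0.0028), and the change over time of the MEK difference for EGFR turned with library totals only (-0.0882). Within library 1 alone, the ERBB2 sign turned at 20 h with the MEK (-0.0443) and PI3K (-0.127) inhibitors and between the inhibitors at 30 h (0.266). For ERBB2 it also turned at 20 h against 15 h (0.160), and against unstimulated with the MEK (0.294) and PI3K (0.0280) inhibitors. The sign turned there too for ERBB3 with the MEK inhibitor at 30 h (-0.0583). For ERRFI1 it turned with the PI3K inhibitor at 30 h against unstimulated (0.190). In library 2 alone it turned at 30 h against 20 h with EGF alone for ERBB2 (0.114) and ERRFI1 (0.0578), at 20 h against 15 h for ERBB3 (-0.109), and for the change over time of the MEK difference for ERBB2 (-0.304) and ERBB3 (0.126).

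Differences within library 1 or 2 alone gave these ranges at 20 h: ERBB3 0.55 to 0.72 with the MEK and 0.47 to 0.63 with the PI3K inhibitor. At 30 h they gave ERBB2 0.46 to 1.15, ERBB3 -0.0583 to 0.675 and ERRFI1 -0.29 to -0.14 with the MEK inhibitor, and ERBB2 0.77 to 0.89 and ERBB3 -0.52 to -0.28 with the PI3K inhibitor. At 15 h against unstimulated they gave EGFR -0.55 to -0.39, ERBB3 -3.23 to -2.42 and ERRFI1 -1.08 to -0.32. For the change over time they gave EGFR 0.0449 to 0.0456 with the MEK inhibitor, and EGFR 0.73 to 0.75, ERBB2 0.372 to 1.01, ERBB3 -1.16 to -0.75 and ERRFI1 -0.78 to -0.76 with the PI3K inhibitor.

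The background counts of called genes depended on the setting. Without the library block 342, 840, 2137 and 2384 genes were called in place of 1332 (MEK, 20 h), 2607 (PI3K, 20 h), 4216 (MEK, 30 h) and 4428 (PI3K, 30 h), and 1877 in place of 3116 at 15 h against unstimulated; outside S and G2/M the first 4 counts were 629, 1255, 1489 and 1487. DESeq2 called 796 for the MEK inhibitor at 20 h, and only the conditions compared gave 2065 at 15 h. For the changes over time of the MEK and PI3K differences (622 and 630), the counts were 36 and 6 without the block, 395 and 375 without the deepest cells, 89 and 99 outside S and G2/M and 377 and 412 with DESeq2. Size factors of the DESeq2 type changed no call of the 4 genes. The cause of these changes was not tested; cells outside S and G2/M are fewer, and ERBB2 and ERBB3 are limited by their few UMIs.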
